A study of Mus musculus with 8 samples.

Results

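The proteins of the small subunit of the mitochondrial ribosome were followed, through their transcripts, in single heart muscle cells of the mouse embryo. The genes were chosen by name: all genes of the array whose symbol is Mrps followed by a number, and Dap3, Ptcd3, Aurkaip1 and Chchd1, which encode small subunit proteins under other names. This gave 33 of the 24327 genes with a symbol. They were read by 46 probes. Of the 33 genes, 21 had 1 probe and 12 had several, and in the latter the probe with the highest mean log2 signal over the 8 cells stood for the gene.

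Mitochondria keep a small genome and translate the respiratory chain subunits that it encodes on ribosomes of their own. The small subunit of this ribosome holds and decodes the mRNA, and its proteins are made from nuclear genes and imported. Some of these proteins descend from the bacterial ribosome and others are found only in mitochondria. Heart muscle depends on respiration and is rich in mitochondria. Of the 33 genes, 16 encode relatives of bacterial small subunit proteins and 14 encode proteins particular to mitochondria. The other 3 carry a small subunit name only, since Mrps18a and Mrps30 encode proteins of the large subunit and Mrps36 encodes a subunit of the oxoglutarate dehydrogenase complex.

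The cells came from the heart tube of embryos at embryonic day 8.5 with 9 somites, and each was assigned to the myocardium. Their cDNA was amplified by PCR, turned back into RNA with T3 polymerase, given a Cy3 label and applied, 1 cell per array, to one-colour Agilent arrays that carry probes of 60 bases. The 4 WT cells had the genotype Mesp1+/+_Sox17flox/flox and the 4 KO cells the genotype Mesp1Cre/+_Sox17flox/flox, so that floxed Sox17 alleles were shared by all cells and Cre, expressed from the Mesp1 locus in early mesoderm, was the difference between the genotypes. Sox17 encodes a transcription factor of endoderm and of endothelial precursors. The comparison asks how the transcripts of myocardial cells differ when Sox17 is deleted in the mesoderm. The KO genotype also has a Cre allele in place of a Mesp1+ allele, and its part cannot be told apart from that of the deletion.

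The labels name no embryo for any cell, so each genotype counts as 1 sample, and the values are described without tests or p-values. An SD here measures how far 4 cells spread and is no error of a genotype's mean. The WT arrays shared 1 slide and the KO arrays a second one, so that slide and genotype cannot be told apart. Signals are the scanner's processed intensities after scaling of the arrays to each other, and scaled values below 50 were set to 50, the floor. Values at the floor have no order among themselves. A gene was detected in a cell when its probe was well above background there. Genes detected in every cell of WT, of KO or of both genotypes are called present. A difference is the mean log2 signal of the 4 KO cells minus that of the 4 WT cells, and a gene was called lower or higher when the means were at least 5-fold apart, 2.32 on the log2 scale.

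The 10 myocardial markers were above background in each of the 8 cells, with a summed scaled signal of 483358 to 844974 in WT and 679588 to 956993 in KO cells. Of 10 endothelial markers, 4 were detected in at least 1 cell (Kdr, Pecam1, Tie1 and Plvap), and the sum of the list was 975 to 1143 in WT and 898 to 1116 in KO cells. The 7 erythroid and 6 endodermal markers stayed at the floor in every cell, although Hba-a1 was well above background in 3 KO and 0 WT cells, Foxa2 in 1 KO cell and Ttr in 2 WT cells. Neither Sox17 nor Mesp1 was detected in any cell, so the genotype labels could not be checked against the deleted gene. Between 22.0% and 30.8% of all genes were detected in the WT cells and between 19.1% and 27.7% in the KO cells.

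Past 5-fold, 7 small subunit genes were lower and 1 was higher in the KO cells, and over all genes lower ones also outnumbered higher ones (767 and 201). The sign of the differences leaned to lower about as often as over all genes. Of the 33 genes, 13 were present, and 3 of these were at least 5-fold lower in KO cells (Aurkaip1, Mrps24 and Mrps26), which is 23.1% beside 10.3% of all 3525 present genes. Mrps24 and Mrps26 were present only through the WT cells, in which they were higher, so the filter itself favoured this direction for them. Of the 5 members detected in all 8 cells, 1 was lower (Aurkaip1), beside 2.72% of all genes so detected. No present member was at least 5-fold higher, beside 2.58% of all present genes. Aurkaip1 and Mrps24 are also on the study's list of genes lower in mutant cells, which was drawn from these arrays, and they are therefore not independent evidence of a direction. Without them 1 of 11 present members, or 9.09%, was lower. The count of 3 rested on which cells were used, and so did the share over all genes. It was 6 of 18 present members without WT cell 1 (15.6% of all present genes), 6 of 14 without WT cell 2 (13%), 6 of 15 without KO cell 3 (9.6%) and 5 of 13 without KO cell 4 (11.6%). Without KO cell 1 it fell to 2 of 15, or 13.3% (10.7%). When presence was not required, 7 of the 33 genes were lower (Dap3, Mrps7, Mrps11 and Mrps33 in addition), beside 3.15% of all genes and 6.09% of those detected in at least 1 cell, and 1 was higher (Mrps18c), beside 0.826% and 1.6%.

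The median difference over the 33 genes was -0.70 on the log2 scale. The median over all 24327 genes is 0 because 15073 of them had a difference of exactly 0, all at the floor in every cell, so it is no baseline. Over the genes whose difference was not 0 the median was -0.79 for the members and -0.22 for all genes. The median of -0.70 was weaker without WT cell 3 (-0.37), WT cell 4 (-0.31), KO cell 1 (-0.35) or KO cell 4 (-0.12) and stronger without KO cell 3 (-1.07), and it stayed below 0 under each alternative scaling and background correction (-1.04 to -0.53). The difference was below 0 for 19 genes, above 0 for 13 and exactly 0 for Mrps27. The share below 0 among differences that were not 0 was 59.4% for the members and 57.6% for all genes. In none of the 13 present members did the 4 KO cells all lie below or all lie above the 4 WT cells. Among all present genes, 3.12% had every KO cell below every WT cell and 2.44% had the reverse. The members spread widely within a genotype, with a median SD of 2.34 between WT cells and 2.95 between KO cells over the present members, on the log2 scale.

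**Figure D1:**
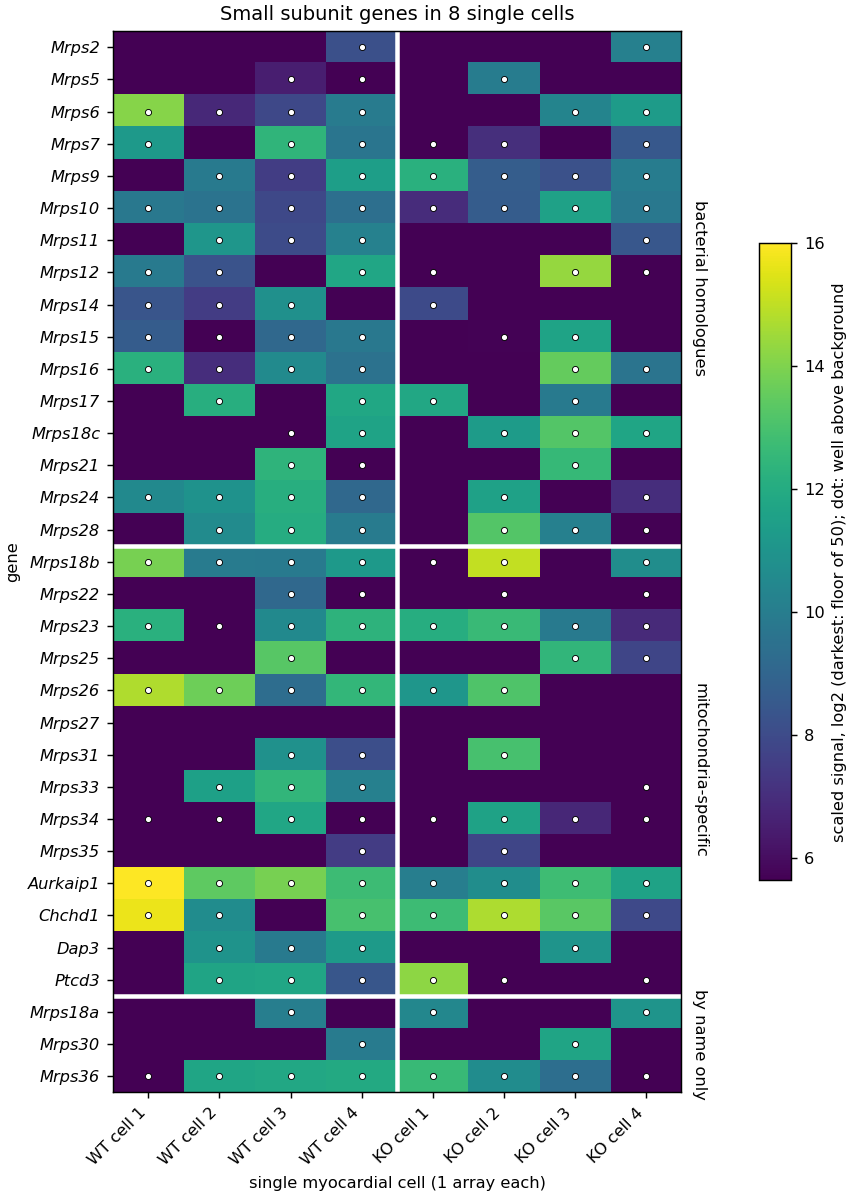
Scaled log2 signal (colour) of the 33 genes (vertical axis) in the 4 WT and 4 KO cells (horizontal axis), ordered by origin of the protein. Darkest squares are at the floor of 50 and white dots mark cells where the probe was well above background. The plot shows 91 of 132 possible detections in WT and 74 of 132 in KO cells, with 5 genes marked in all 8 cells and Mrps27 in none.

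Among the 16 relatives of bacterial proteins, 6 were present, 1 of them was lower, and the median difference over the 16 was -0.99. Mrps24, a protein of the subunit head, was the member of this class with the largest difference among those present. WT cells 1 to 4 had scaled signals of 1512, 1964, 4461 and 559.7, and KO cells 1 to 4 had 50, 3045, 50 and 127. Every WT cell was above background but only KO cells 2 and 4 were, and KO cell 2 exceeded all WT cells except WT cell 3. The mean log2 signal was 10.69 ± 1.23 for WT against 7.46 ± 2.81 for KO (SD, n = 4 cells each), a difference of -3.22 or 9.35-fold. Leaving out any 1 cell gave differences of -4.59 (without KO cell 2) to -2.62 (without KO cell 1). Over the cells in which it was detected, the difference was -1.41. The probe lies at the gene, at chr11:5604421-5604480 of build mm9, and its last 30 bases, on the minus strand at chr11:5604421-5604450, are shown to identify the transcript that was measured.
Mrps24 probe: aagtgcacttttctccagtagagcctacaa

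Mrps7, another head protein, from whose bacterial relative assembly of the head begins, was not present because WT cell 2 and KO cell 3 were not above background. WT cells 1 to 4 had signals of 2412, 50, 5425 and 808, and KO cells 1 to 4 had 50, 130.3, 50 and 356. The 3 WT cells with signal lay above all KO cells. The difference was -3.04, or 8.21-fold, and ranged from -4.40 (without WT cell 2) to -2.15 (without WT cell 3, which ended the call). Mrps11, a protein of the platform, was 50, 2148, 254 and 1162 in WT cells and 50, 50, 50 and 348 in KO cells. KO cell 4 was the only KO cell above background, and it exceeded WT cell 3. Its difference of -2.38 (5.20-fold) was just past the threshold and ranged from -3.40 to -1.60 when 1 cell was left out, and of these values only those without WT cell 1, WT cell 3 or KO cell 4 were past the threshold.

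Mrps18c, a platform protein that occupies the site of bacterial S18, ran the other way. Its signal was 50, 50, 50 and 3186 in WT cells and 50, 2563, 9665 and 3366 in KO cells. The 3 KO cells with signal were matched by WT cell 4 alone, which lay above KO cell 2. The difference was 3.34, or 10.1-fold. It stayed past the threshold whichever cell was left out, between 2.42 (without KO cell 3) and 4.95 (without KO cell 1).

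The other 5 present relatives of bacterial proteins were less than 5-fold apart. Mrps10, a head protein, was detected in all 8 cells with signals of 885, 769, 236 and 694 in WT and 123, 401, 3030.1 and 877 in KO cells, a difference of 0.06. The highest and the lowest value were both from KO cells. Mrps9, a head protein whose bacterial relative reaches the tRNA in the peptidyl site, was 50, 946, 182 and 2825 in WT and 4756, 419.6, 297 and 1015 in KO cells, and its difference was 1.16. It was detected in all KO cells and lacking in WT cell 1.

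Mrps6 and Mrps15 encode platform proteins and Mrps16 a protein of the body of the subunit. Mrps6 was 17598, 113, 235 and 984 in WT and 50, 50, 1267 and 2564 in KO cells, with a difference of -1.46. Mrps15 was 399, 50, 570.0 and 884 in WT and 50, 51.8, 3198 and 50 in KO cells, with a difference of -1.15. Mrps16 was 4707, 128, 1568 and 745 in WT and 50, 50, 12160.0 and 786 in KO cells, with a difference of -1.22. In all of these genes WT cells 1, 3 and 4 were above the floor, at least 2 KO cells were at or near it, and the brightest KO cell lay above at least 3 of the 4 WT cells, as KO cell 3 did too for Mrps6. Without the brightest KO cell (KO cell 4 for Mrps6, KO cell 3 for the others), a choice that can only lower a difference, the values were -2.49, -2.65 and -2.87. At the other end of the range, Mrps6 was 0.02 without WT cell 1. Mrps15 was -0.65 and Mrps16 -0.23 without KO cell 1.

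Of the 14 genes for proteins particular to mitochondria, 6 were present, 2 of these were lower, and the median difference over the 14 was -0.48. Aurkaip1, which was first described as a partner of Aurora A kinase, was the only lower member that was detected in all 8 cells. WT cells 1 to 4 had signals of 69894, 11029.9, 14829 and 6873, and KO cells 1 to 4 had 1081, 1707, 7134 and 3154. The groups overlapped only in KO cell 3, which lay above WT cell 4. The mean log2 signal was 14.03 ± 1.45 for WT against 11.31 ± 1.18 for KO (SD, n = 4 cells each), a difference of -2.72 or 6.59-fold. It was -3.22 when KO cell 3 was left out, and it was under 5-fold when either WT cell 1 (-2.03) or KO cell 1 (-2.31) was left out. A second probe overlapped the first at the same gene and gave 51389.8, 7800.2, 9916 and 4579 in WT and 164, 187, 4480.3 and 1829.7 in KO cells, a difference of -4.04. Both probes placed KO cells 1 and 2 lowest, but by the second probe KO cell 3 lay just below WT cell 4, so that all KO cells were below all WT cells.

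Mrps26, a further protein of mitochondrial ribosomes without a bacterial relative, gave 27552, 13540.3, 652 and 5785 for WT cells 1 to 4, and 2142, 9015, 50 and 50 for KO cells 1 to 4. KO cells 3 and 4 were not above background, whereas KO cells 1 and 2 exceeded WT cell 3. The mean log2 signal was 12.58 ± 2.34 for WT against 8.87 ± 3.82 for KO (SD, n = 4 cells each), a difference of -3.71 or 13.1-fold, and it stayed past the threshold when any 1 cell was left out (-5.13 to -2.63). Over the cells in which it was detected, the difference was -0.48. The position that the files give for this probe is chr12:111557459-111557518, while the RefSeq gene is on chromosome 2 and none of its neighbours are found near the probe, so the transcript behind the signal is uncertain. A second probe, which has no position in the files, gave 50, 4454, 256 and 653 in WT and 50, 2292, 50 and 50 in KO cells, a difference of -1.76. The last 30 bases of both probes are shown because the reading of Mrps26 depends on which of them is taken.
Mrps26 chosen probe: cctgcttttataaataaagtattggagctc
Mrps26 second probe: tcatcactcgggagaacctggaggcacgga

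Mrps33 had signals of 50, 2965, 5685 and 1130.1 in WT cells 1 to 4, while all KO cells were at the floor of 50. Its probe was nevertheless well above background in KO cell 4, below the floor after scaling. The difference of -4.30, or 19.8-fold, was the most negative of the 33 genes, and its size depends on where the floor was set. It ranged from -5.74 to -3.46 when 1 cell was left out. WT cell 1 was not above background either, so the gene was not present. A second probe was 50, 335, 545 and 106 in WT and at the floor in all KO cells (difference -1.82), and an unnamed probe that shares 24 bases with the first gave -3.58. All of these probes therefore had the same 3 WT cells above the floor and no KO cell. The last 30 bases of the probes named Mrps33 are shown as different stretches that gave the same pattern, the first at chr6:39752333-39752362 of mm9 on the minus strand.
Mrps33 chosen probe: aggaacatgacttccctcagtagacgccaa
Mrps33 second probe: atgagcatcaggactttaaggatgagcaac

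Dap3 encodes a GTP-binding protein of the subunit that was first described in cell death. It was 50, 1976, 960.4 and 2465 in WT and 50, 50, 2044 and 50 in KO cells. The difference was -2.46 (5.50-fold) over all cells and 0.29 over the cells in which the gene was detected, 3 WT cells and 1 KO cell. When 1 cell was left out it ranged from -3.80 to -1.85 and was past the threshold only without WT cell 1 or KO cell 3. The second probe gave -1.06 and was detected in 3 cells where the first was detected in 4.

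The other 4 present proteins of this class were less than 5-fold apart. Mrps18b, a distant relative of bacterial S18 that does not take its site, was 15074, 992, 963 and 2457 in WT and 50, 33594, 50 and 1692 in KO cells, a difference of -1.99. The brightest of all 8 cells was a KO cell, and 2 KO cells were at the floor. Without KO cell 2 the difference was -3.91, and without KO cell 1 it was -0.78. Mrps23 was 4801, 50, 1493 and 5251 in WT and 4329.9, 6454, 945 and 119 in KO cells, with a difference of 0.18. Chchd1, a small protein with the paired cysteine motif of proteins imported into the intermembrane space, was 53589.8, 1625, 50 and 8057 in WT and 6931, 27125, 10334 and 240.4 in KO cells, with a difference of 0.93. Its sign turned without WT cell 3 (-0.93), and the gene was past the threshold without WT cell 1 (2.42) or KO cell 4 (2.36). Mrps34 was well above background in all 8 cells but below the floor after scaling in 5 of them. It was 3454 in WT cell 3, 3095 in KO cell 2 and 111 in KO cell 3, with a difference of 0.25.

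Mrps27, which encodes a pentatricopeptide repeat protein, was the only member detected in 0 cells. The remaining 14 genes were detected in 2 to 6 cells each, and none was present or 5-fold apart. Their differences ran from -1.86 for Mrps14 to 1.43 for Mrps18a, 7 below 0 and 7 above. Of the 3 genes that are small subunit genes by name only, Mrps36 was present, with 50, 3389, 3683 and 3943 in WT and 6318, 1659, 667 and 50 in KO cells and a difference of -0.70. WT cell 1 and KO cell 4 were both at the floor.

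**Figure D2:**
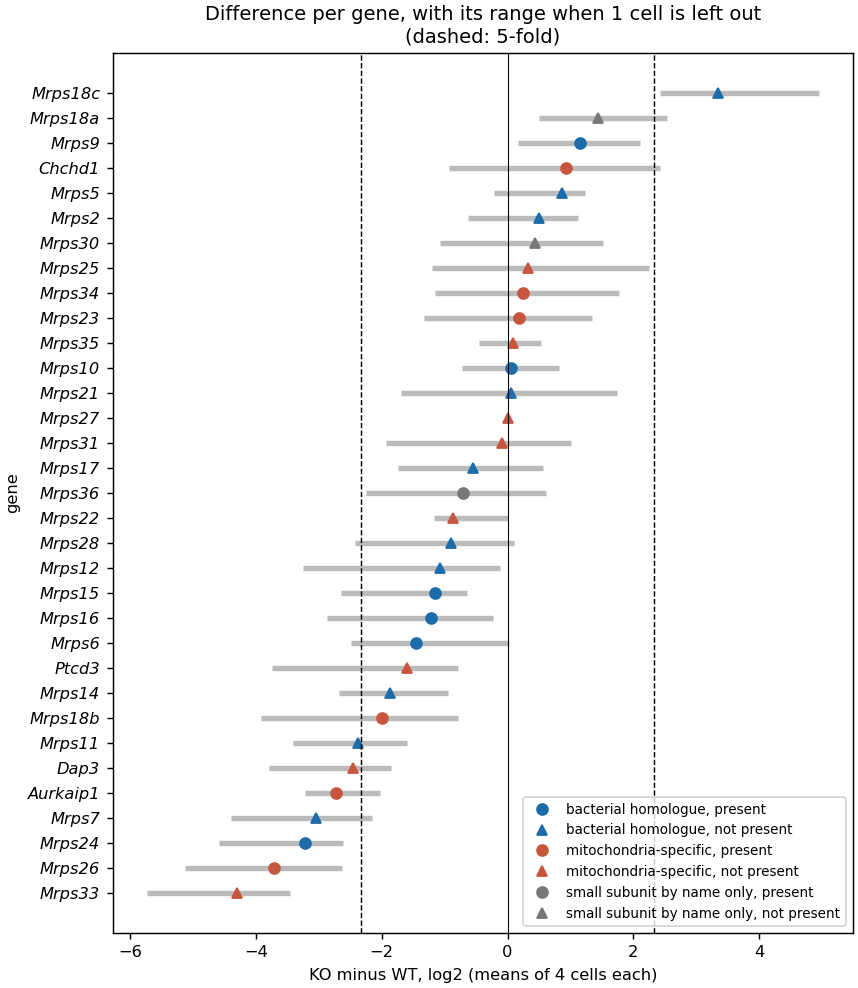
Difference (KO minus WT mean log2 signal, horizontal axis) of each of the 33 genes (vertical axis). Points are the values over 4 cells per genotype, circles for present genes and triangles for the others, and grey bars run from the lowest to the highest value when 1 cell is left out. Left of the dashed line for 5-fold lower are 7 genes, from Mrps11 at -2.38 to Mrps33 at -4.30, and right of the line for 5-fold higher is Mrps18c at 3.34.

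Most small subunit transcripts were found in some cells and not in others. Aurkaip1, Mrps10, Mrps23, Mrps34 and Mrps36 were the 5 genes above background in each of the 8 cells, and 27 were detected in 1 to 7 cells. These 27 were 84.4% of the members detected in at least 1 cell, close to the 81.6% of all genes detected in at least 1 cell. More WT than KO cells had the transcript for 13 genes and more KO than WT cells for 5 genes, while 15 had it equally often. Among all genes detected in at least 1 cell these outcomes made up 43.7% and 22.5%. When the level was compared only over cells in which the gene was detected, the median difference of the 32 genes was -0.21, with 16 below and 16 above 0. By that measure 4 genes, or 12.5%, were at least 5-fold lower and 4 at least 5-fold higher, beside 11.2% and 9.01% of the 7761 genes detected in both genotypes. Detected cells with a scaled signal below 50 still counted at the floor, so the measure is not free of it. Among the genes past 5-fold this held for Mrps33 and Mrps7 in KO cells and for Mrps18c, Mrps21 and Mrps5 in WT cells.

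WT cells 1 to 4 had 15, 21, 26 and 29 of the 33 genes above background, and KO cells 1 to 4 had 15, 19, 18 and 22. The WT mean was 22.8 ± 6.13 and the KO mean 18.5 ± 2.89 (SD, n = 4 cells each). The difference was -4.25 genes, while the cells ranged from 15 to 29 in WT and from 15 to 22 in KO. The share of all genes detected in the same cells was 22.0%, 25.2%, 30.8% and 29.0% in WT and 27.7%, 19.5%, 19.1% and 23.2% in KO cells. The WT cells with the most small subunit genes were thus also the cells with the highest share of all genes detected, while KO cell 1 had the highest share of detected genes among KO cells and the fewest small subunit genes. The part of the overall detection rate in the difference was not tested.

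The mean log2 signal over the 33 genes was 8.19, 8.25, 9.31 and 9.30 in WT and 7.47, 8.36, 8.71 and 7.40 in KO cells. WT cells 1 and 2 lay below KO cells 2 and 3. The WT mean of 8.76 ± 0.63 and the KO mean of 7.98 ± 0.66 (SD, n = 4 cells each) were -0.78 apart. The cells ranged from 8.19 to 9.31 in WT and from 7.40 to 8.71 in KO. Over all genes the same difference was -0.13, which includes the genes at the floor in every cell. Over genes whose difference was not 0 the mean was -0.80 for the small subunit and -0.35 for all genes. Without any 1 cell the difference of the small subunit mean stayed between -1.02 and -0.58. The myocardial markers moved the other way in the same cells, with a median difference of 0.84, above 0 for 9 of 10, and their part in the difference was not tested.

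**Figure D3:**
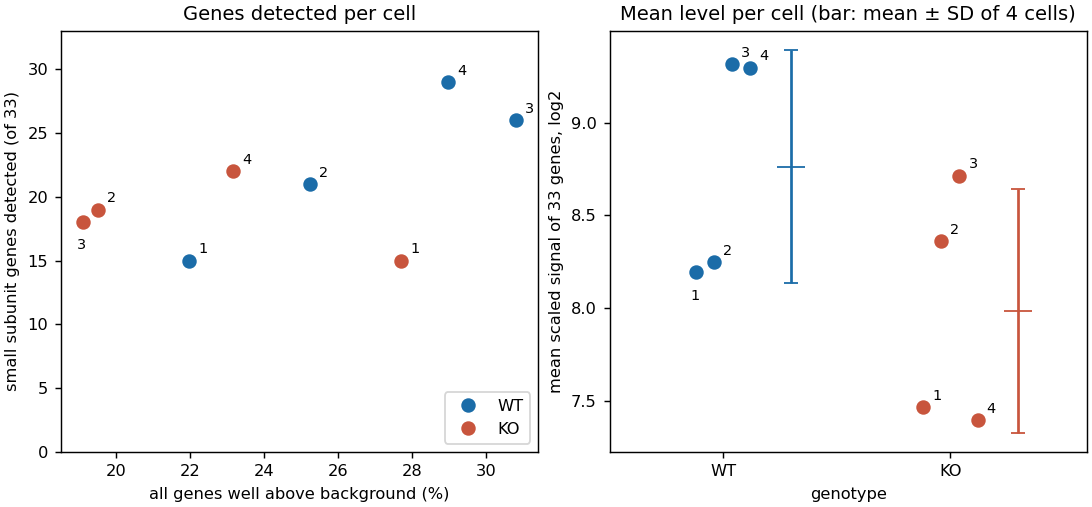
Left, small subunit genes detected per cell (of 33) against the share of all genes detected in that cell (%). Right, mean scaled log2 signal of the 33 genes in each cell, with bars for the mean ± SD of 4 cells. Numbers name the cells. WT cells span 15 to 29 detected genes and KO cells 15 to 22, and the mean levels of the genotypes overlap.

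Other probes of the same gene were set beside the chosen ones. Of 12 genes with several probes, a second probe had the same sign as the first in Aurkaip1, Dap3, Mrps7, Mrps17, Mrps18b, Mrps23, Mrps26 and Mrps33. In Mrps7 the second probe begins at the last base of the first and gave 2718, 50, 7162 and 50 in WT and 50, 50, 50 and 411 in KO cells, a difference of -2.47. In Mrps2 (0.50 and -0.08) and in Mrps36 the signs were opposite, and the further probes of Mrps14 and Mrps25 stayed at the floor. For Mrps18b, an unnamed probe that shares 55 bases with the chosen one gave -1.93 beside -1.99, while the other named probe was above the floor in WT cell 2 only.

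Mrps36 is the clearest case of disagreement. Its second probe was at the floor in WT cells 1 to 3, 1145 in WT cell 4, and 19869, 2937, 120.3 and 50 in KO cells, a difference of 2.81 where the chosen probe gave -0.70. Both probes are placed by the files on chromosome 17, at chr17:54006041-54006100 and chr17:54005742-54005801 of mm9, while the RefSeq gene is on chromosome 13. RefSeq also lists a Mrps36 pseudogene on chromosome 17, so the transcript measured is uncertain. Their last 30 bases are shown for this reason.
Mrps36 chosen probe: aatggaatttatccagcgtgggggtccaga
Mrps36 second probe: gcgatgagctattaaaagcacatagtatct

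Of the 33 chosen probes, 25 lay among the neighbours that RefSeq gives the gene, 5 had no position in the files, and 3 lay apart from the gene (Mrps26, Mrps36 and Mrps5). Without these 3 genes, 2 of 11 present members, or 18.2%, were lower, beside 10.3% of all present genes, and the median difference was -0.71. The 2 were Aurkaip1 and Mrps24, both on the study's own list from these arrays.

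**Figure D4:**
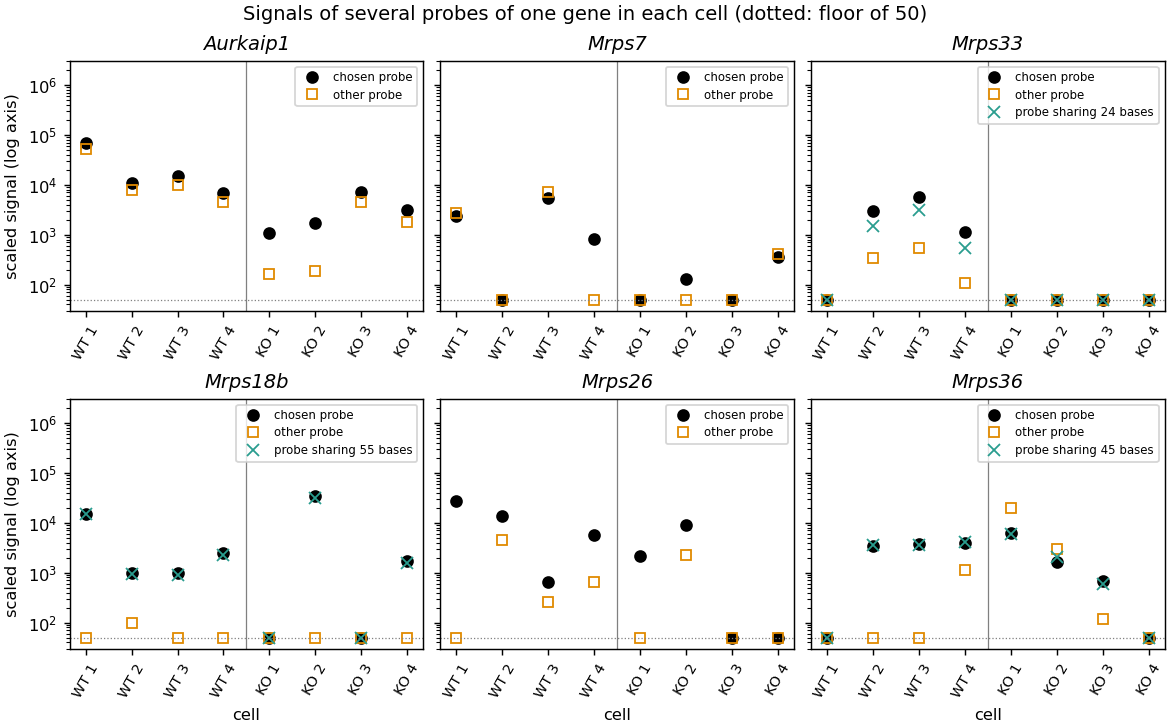
Scaled signal (log axis) in each of the 8 cells for 6 genes read by several probes. Black circles are the chosen probe, open squares another probe named for the gene and crosses an unnamed probe that shares a run of bases with the chosen one. The probes of Aurkaip1 order the cells alike except that KO cell 3 and WT cell 4 change places, those of Mrps33 are above the floor in the same 3 cells, and the second probe of Mrps36 reaches 19869 in KO cell 1 where WT cells 1 to 3 are at the floor.

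The large subunit, which forms the peptide bonds, was measured in the same cells by 48 genes. Of these, 19 were present. At least 5-fold lower in KO cells were 8 of the 19, or 42.1%, beside 10.3% of all present genes. All 8 but Mrpl4 were present only through the WT cells, in which they were higher. At least 5-fold higher was 1, or 5.26%, beside 2.58%. Most of the lower genes and the higher one are on the study's own lists from these arrays, so these counts are not independent evidence either. The median difference was -0.77 over the 48 genes, beside -0.70 for the small subunit. WT cells 1 to 4 had 26, 33, 39 and 39 large subunit genes above background and KO cells 1 to 4 had 26, 27, 26 and 32, so the order of the WT cells was nearly that of the small subunit. The mean level was -0.83 apart, beside -0.78. Whether the subunits differ was not tested. The large subunit genes detected in all 8 cells and 5-fold apart were Mrpl4 (-4.55) and Mrpl18 (3.86). By the chosen probes, 2 of the 19 present large subunit genes and 0 of the 13 present small subunit genes had every KO cell below every WT cell. Among all present genes this share was 3.12%. In neither subunit did a present gene have every KO cell above every WT cell, beside 2.44% of all present genes.

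Of 48 further genes of mitochondrial translation that were measured (translation factors, small subunit assembly factors, mitochondrial transcription and mRNA factors, and mitochondrial tRNA synthetases), 6 were present. C1qbp, a mitochondrial matrix protein, was the only present gene of these lists that was 5-fold apart, at -3.25, and it is named here after its value was seen. It was present only through the WT cells. Without the requirement of presence, 4 of the 48 were lower and 2 were higher. The shares were 3.15% and 0.826% over all genes, and 6.09% and 1.6% over those detected in at least 1 cell. The median difference was -0.37 for the translation factors, 0 for the assembly factors, -0.09 for transcription and mRNA factors and 0 for the synthetases. Many of these genes were at the floor in all cells, as the 15 of 48 that were detected in 0 cells show.

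**Figure D5:**
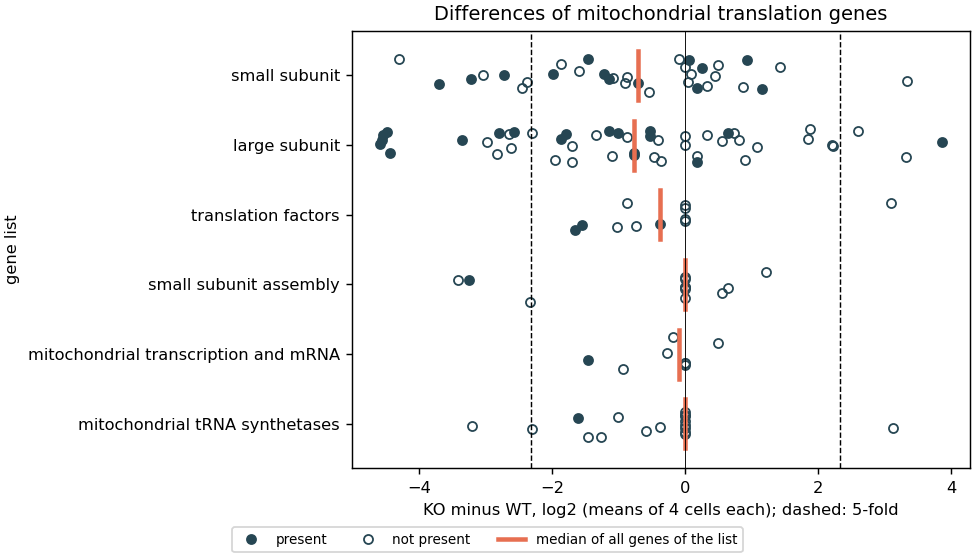
Differences (KO minus WT mean log2 signal, horizontal axis) of the genes of 6 lists of mitochondrial translation. Filled points are present genes, open points the others, and bars the median over all genes of a list, -0.70 for the small and -0.77 for the large subunit. Dashed lines mark 5-fold. Vertical scatter within a list only separates the points.

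The promoters of the small subunit genes were read for motifs of factors known from genes of mitochondrial and ribosomal proteins. RefSeq promoter windows of build GRCm38.p6, from 250 bases before to 50 after the start site, were matched for 28 of the 33 genes (29 windows). The ETS motif CCGGAAG, on either strand, was in 11 windows, or 37.9%, beside 8.86% of 32851 windows of all genes and 29.8% of those of the large subunit. The YY1 motif AAGATGGCG was in 5 windows, or 17.2%, beside 1.40% of all windows and 8.51% of those of the large subunit. The consensus motif of NRF1 was in 0 windows, beside 0.971% of all and 6.38% of those of the large subunit. The last 3 letters of the ETS motif are the first 3 of the YY1 motif, so that the motifs can overlap, and a match is a description of the letters and not of binding.

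Matches were found in genes of every outcome, as the following stretches of 30 bases show, with the motif in capitals: Mrps26 and Mrps33, both lower, Mrps18c, higher, and Mrps27, detected in 0 cells, for ETS, and Mrps24 and Mrps11, both lower, for YY1. The stretches lie at chr2:130563732-130563761, chr6:39810887-39810916, chr5:100798592-100798621, chr13:99344727-99344756, chr11:5707652-5707681 and chr7:78783013-78783042, each read on the strand of its gene.
Mrps26 ETS: ctccgcggccaCTTCCGGgccgggcgcagg
Mrps33 ETS: aagtaaaggggggcgggcCTTCCGGggacg
Mrps18c ETS: gggtcacgtgaCTTCCGGcccgggaagcgc
Mrps27 ETS: tggtaggaccaCTTCCGGcggaggcgggct
Mrps24 YY1: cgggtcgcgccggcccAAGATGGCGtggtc
Mrps11 YY1: ctacgggcgcCGCCATCTTtctgtcttccc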

How the data were processed

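The deposited files, which per the file headers came from Agilent Feature Extraction (version 12.0.2.2), held linear intensity values: the background-corrected processed signal and, for an alternative, mean and background intensity. The flags for signal well above background were the software's. The authors set levels under 50 to 50, scaled arrays on the 50th percentile and scaled each gene on its median. Here the floor came after scaling and no scaling per gene was made.

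Control and outlier spots (146 to 220 per array) were left out, 0 spots were saturated, and log2 signals were averaged per probe (55681 probes, 32469 with a symbol). Arrays were shifted by -0.76 to 0.68 (log2) to a common 50th percentile of the 5301 probes well above background in all cells, and floored at 50. The calculations used Python 3.11.15, numpy 2.4.6, pandas 2.3.3 and, for normexp with an offset of 50, R 4.3.3 and limma 3.58.1, and were tested on simulated data. The number of arrays limits the precision. Members and lists were chosen with earlier results of these data known. Named with values were present members, those at least 5-fold apart and those detected in 0 cells. Of the other lists, genes 5-fold apart in all 8 cells were named. Alternatives concerned background correction, scaling, floor, filter, fold, probe choice and each cell in turn. Probe positions are of mm9, and the RefSeq table, of build GRCm38.p6, was used for names and neighbours and its promoters for sequence. Exon annotation was not used here, and 1 probe sequence is not reported here.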

Additional observations from a re-analysis of the deposited data

Results flagged for a closer look

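In 23 of the 74 groups of 4 cells examined, 1 cell lay far from the other 3. Each of these 23 groups was 1 gene in 1 genotype. Among untied values chance alone sets apart about 1 in 20 groups, but most of the groups found had their other 3 cells tied at the floor of 50. Any cell above 3 tied ones is set apart whatever its value, so the 23 groups cannot be weighed against that rate. The scaled signal of the cell that stood apart among WT cells was 286 for Mrps2, 978 for Mrps30, 3186 for Mrps18c and 177 for Mrps35 in WT cell 4, and 92.3 for Mrps5, 562 for Mrps22, 1069 for Mrps18a, 3454 for Mrps34, 5374 for Mrps21 and 10242 for Mrps25 in WT cell 3. Among KO cells it was 252 for Mrps14 and 19329 for Ptcd3 in KO cell 1, 223 for Mrps35, 1009 for Mrps5 and 8207 for Mrps31 in KO cell 2, and 2044 for Dap3, 3337 for Mrps30, 6134 for Mrps21 and 20983 for Mrps12 in KO cell 3. It was 348 for Mrps11 and 1139.8 for Mrps2 in KO cell 4. For Mrps15 it was 3198 in KO cell 3, where the other KO cells were at 50 to 51.8. In 1 group the cell that stood apart was low: Mrps36 was at 50 in WT cell 1, where the other WT cells were at 3389 to 3943.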

How the results depend on the processing

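The 3 lower and 0 higher present members and the median of -0.70 depended on the rules that decide which members count. The number lower is given with the share of all genes lower under the same setting in brackets, which was 10.3% for the 3 of 13. It was 7 of 13 with no floor (15.8%), 6 of 13 with the median of cells in place of the mean (13.8%), 7 of 33, with 1 higher, with no filter (3.15%), 7 of 22, with 1 higher, when detection in 3 of 4 cells of a genotype was enough (11.9%), and 1 of 5 when detection in all 8 cells was asked for (2.72%). It was 1 of 13 at 10-fold (4.77%), 7 of 13, with 1 higher, at 2-fold (22.3%), 6 of 19 when detection was a positive and significant signal (7.56%), and 1 of 11 without Mrps24 and Aurkaip1 (10.3%). Over the 5 members detected in all 8 cells the median was 0.057. Leaving out 1 cell at a time gave 2 to 6 lower and 0 to 1 higher, a median of -1.07 to -0.12, a difference in members detected per cell of -6.83 to -2.17 and in mean level of -1.02 to -0.58. Leaving out the 3 members whose chosen probe lies apart from the gene, an alternative added after seeing the data, gave 2 of 11 lower (10.3%) and a median of -0.71. Background correction by normexp, the 75th percentile, other scaling and averaging of probes moved none of these counts by more than 1.5 times. No gene that was 5-fold apart changed its sign under any of these settings. No paired analysis was possible because the cell numbers name cells and no embryo, and no result comes from a test. Signals at the floor limit every difference that involves them.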

Other observations

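Mrps35 was printed on the array 10 times, which shows the spread between spots. In WT cell 4 its unscaled spot signals were 182 to 230, with an SD of 0.11 on the log2 scale, and in KO cell 2 they were 128 to 154, with an SD of 0.073. In the other 6 cells none of its spots was well above background. This spread covers printing and scanning of a spot only and not the amplification of a cell's cDNA.

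Where a second probe shared most of its bases with a chosen probe, cells were ordered alike. For Mrps21 an unnamed probe that shares 40 bases gave 1900.1 in WT cell 3 and 2182 in KO cell 3 and the floor elsewhere, the same cells in which the chosen probe gave 5374 and 6134. For Mrps36 an unnamed probe that shares 45 bases gave a difference of -0.72 beside -0.70.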
